A study of Vulpes vulpes with 48 samples.

Results

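The genes described here are the 200 whose level varied most between foxes of the same line in the right basal forebrain. They were selected on their measured forebrain values among 10130 genes with a mean of at least 10 counts per 1000000 counts (CPM) in the forebrain. Levels were taken as log2(CPM + 1), centred on the mean of each line, and ranked by their variance over 21 libraries, leaving out tame library ID483. The forebrain table held 13089 genes. The values that chose the genes are given below as description, without a test.

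The samples came from male silver foxes (Vulpes vulpes) aged 1.5 years, from 2 breeding lines, named tame and aggressive for the behaviour under selection; the labels name no allele or treatment. The groups were tame forebrain (10 libraries), aggressive forebrain (12), tame right prefrontal cortex (12) and aggressive right prefrontal cortex (12), all of poly(A) RNA. The labels also list tame forebrain ID488 and ID490, not analysed here. The labels give no litter, batch or day and do not say whether samples came from separate animals, so p-values measure the spread between these samples. Tame forebrain library ID483 and 5 tame cortex libraries (ID182, ID186, ID187, ID190 and ID191) stood apart from the rest of their groups, and results that rest on them are given with and without them. Forebrain libraries held between 6.25 and 13.6 M counts (M, units of 1000000 counts) and cortex libraries between 6.23 and 17.2 M, so that 1 CPM rests on at least 6.23 counts.

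The basal forebrain lies at the base of the brain, next to the striatum, the septum and the hypothalamus, and holds cholinergic and GABAergic projection neurons. The prefrontal cortex is a layered sheet of mostly glutamatergic neurons. A dissected block of the basal forebrain can hold parts of several nuclei, and each nucleus expresses its own set of genes. In bulk tissue, fewer cells of a type and less RNA per cell cannot be told apart. The genes carry dog Ensembl identifiers without symbols, so functions are not given and neither the tissues nor any cell type could be checked against markers.

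The within-line standard deviation (SD) of the 200 genes ran from 0.593 to 2.83 on the log2 scale, with a median of 0.756, against a median of 0.172 over the 10130 genes. The last genes inside the limit had SDs of 0.595 and 0.593 and the first outside 0.590 and 0.589, so the limit falls on a continuum. The genes were of moderate level: their mean CPM ran from 10.02 to 1777, with a median of 30.6. Together they held 0.731% to 2.995% of the counts of a forebrain library (median 0.914%), and ID483 held the highest share. The mean CPM was taken over all 22 libraries, and 16 genes reach 10 CPM only through ID483. In 14 genes some counts were not whole, and 12 genes formed 6 pairs of identical values, which the counting may not have separated.

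Most of the variable genes fell into sets that moved together, though not all in the same way. Average-linkage clustering of their within-line deviations, cut at a distance of 0.5 (1 minus Pearson's r), placed 177 of the 200 in 5 groups of at least 5 genes. Group A held 72 genes, B 38, C 35, D 25 and E 7, and 23 genes were ungrouped. The median pairwise correlation within a group was 0.91 in A, 0.71 in B, 0.80 in C, 0.77 in D and 0.77 in E over the 21 libraries, against 0.03 among the ungrouped genes and 0.01 over all genes. Group A had the largest median SD, 0.99, and the other groups and the ungrouped genes had medians of 0.64 to 0.77. Clustering built these correlations into the groups, and the points share their libraries and depth. Over all pairs of the 200 genes, in the same group or not, the median correlation was 0.19. In 28.5% of these pairs it exceeded 0.5, against 7.86% over all genes.

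**Figure D1:**
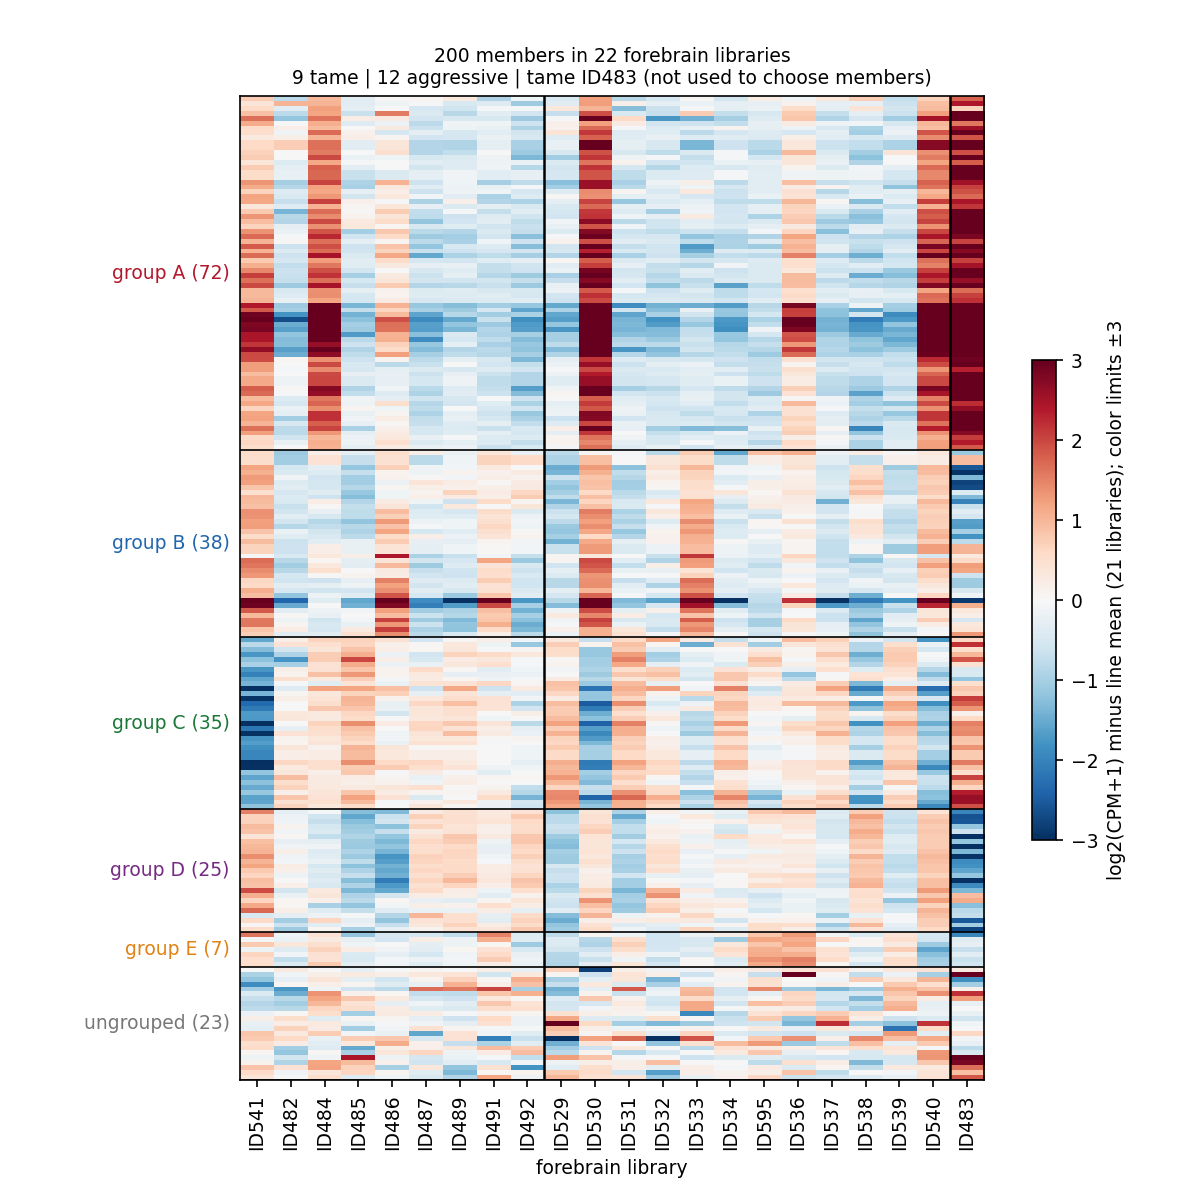
Deviation of each of the 200 genes (rows, ordered by group) from its line mean, in log2(CPM + 1), in the 22 forebrain libraries (columns: 9 tame, 12 aggressive and ID483). Groups A to E show as blocks that are high or low in a few libraries of both lines, and ID483, which did not enter the variance, is high in most of group A.

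Group A was low in most foxes and high in a few of both lines. Its mean deviation was 2.56 in aggressive ID530, 2.05 in aggressive ID540, 1.90 in tame ID484, 1.28 in tame ID541, 0.78 in aggressive ID536 and 0.34 in tame ID486. All other libraries used for the choice lay between -0.81 and -0.45. ID483, placed against the mean of the other 9 tame libraries, reached 3.06. The summed level of the 72 genes had a median of 2116 CPM in the 9 tame libraries (range 1593 to 11762) and of 2056 CPM in the aggressive libraries (1769 to 17936), and was 24202 CPM in ID483. The totals of the 7 libraries above 0 were 13.6 M counts in ID530, 12.8 in ID540, 12.6 in ID483, 12.03 in ID536, 9.76 in ID484, 8.77 in ID486 and 7.25 in ID541, against a forebrain median of 9.80 M. The 3 highest libraries were thus deep ones, but ID492 (12.65 M, mean deviation -0.81) and ID485 (12.4 M, -0.45) were deep and low. The part of depth in the level of group A was not tested.

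The gene that followed the mean of group A most closely was ENSCAFG00000002069. It measured 637 CPM in ID483, 500 in ID530, 343 in ID540, 299 in ID484, 213 in ID541, 105 in ID536 and 77.3 in ID486, and 15.8 to 38.5 CPM in the other 15 forebrain libraries. Its level thus split the libraries of both lines into a high and a low set, and the lines overlapped (tame median 34.7, aggressive median 24.1 CPM). The next closest gene, ENSCAFG00000019189, had a median of 30.8 CPM in tame (22.2 to 327) and 29.6 in aggressive forebrain (22.5 to 161). ENSCAFG00000015418, singled out after its values were seen because it had the second largest SD of all (2.64), spanned 0.111 to 255 CPM in tame and 0.478 to 273 in aggressive forebrain, with medians of 2.71 and 1.38 CPM.

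Group B was high in a set of libraries that overlaps with that of group A without matching it. Its mean deviation was highest in aggressive ID530 (1.35) and ID533 (1.2) and in tame ID541 (1.13) and ID486 (0.95), followed by ID540 (0.73), ID491 (0.56) and ID536 (0.29). The remaining libraries lay between -0.69 and -0.19, and ID483 was at -0.57. ENSCAFG00000004828, the gene closest to the group mean, measured 0.535 to 47.3 CPM in tame forebrain (median 3.82) and 0.730 to 64.8 in aggressive forebrain (median 2.38).

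The most variable gene of the forebrain, ENSCAFG00000003665, belonged to group B and was singled out after its values were seen. Its level was 661 CPM in ID486, 614 in ID533, 564 in ID530, 449 in ID541, 282 in ID491, 196 in ID540 and 106 in ID536. In the other 15 libraries it stayed between 1.63 and 23.9 CPM. High and low libraries occurred in both lines, with medians of 9.18 CPM in tame and 10.3 in aggressive forebrain.

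Groups C and D moved against each other. Group C was lowest in tame ID541 (-1.86), aggressive ID530 (-1.34), aggressive ID540 (-1.04) and aggressive ID538 (-0.86), and highest in aggressive ID531 (0.91), tame ID485 (0.85) and aggressive ID529 (0.74). Group D was highest in ID541 (0.88), ID540 (0.82) and ID538 (0.73), and lowest in ID486 (-1.07), ID485 (-0.94), ID529 (-0.89) and ID531 (-0.82). ID483 continued this opposition, at 1.07 for group C and -1.64 for group D.

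In group C, ENSCAFG00000018028 spanned 0.276 to 35.5 CPM in tame (median 17.4) and 1.25 to 33.2 in aggressive forebrain (median 13.97). ENSCAFG00000012157 spanned 1.10 to 79.9 CPM in tame (median 39.1) and 4.76 to 57.5 in aggressive forebrain (median 34.9). In group D, ENSCAFG00000001515 spanned 23.2 to 487.9 CPM in tame (median 169) and 119 to 505 in aggressive forebrain (median 268). These genes differed by large factors within each line while the ranges of the lines overlapped.

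Group E was small. Over the 21 libraries its mean had a correlation of -0.04 with that of group A, and of 0.45 without ID530 and ID540. Its mean deviation was highest in aggressive ID536 (1.2) and ID595 (1.07) and tame ID491 (0.66), and lowest in aggressive ID540 (-1.01). ENSCAFG00000017308 spanned 13.9 to 32.4 CPM in tame (median 18.1) and 5.69 to 33.2 in aggressive forebrain (median 15.3). ENSCAFG00000010102 spanned 12.4 to 33.1 CPM in tame (median 16.7) and 5.92 to 35.2 in aggressive forebrain (median 11.6).

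**Figure D2:**
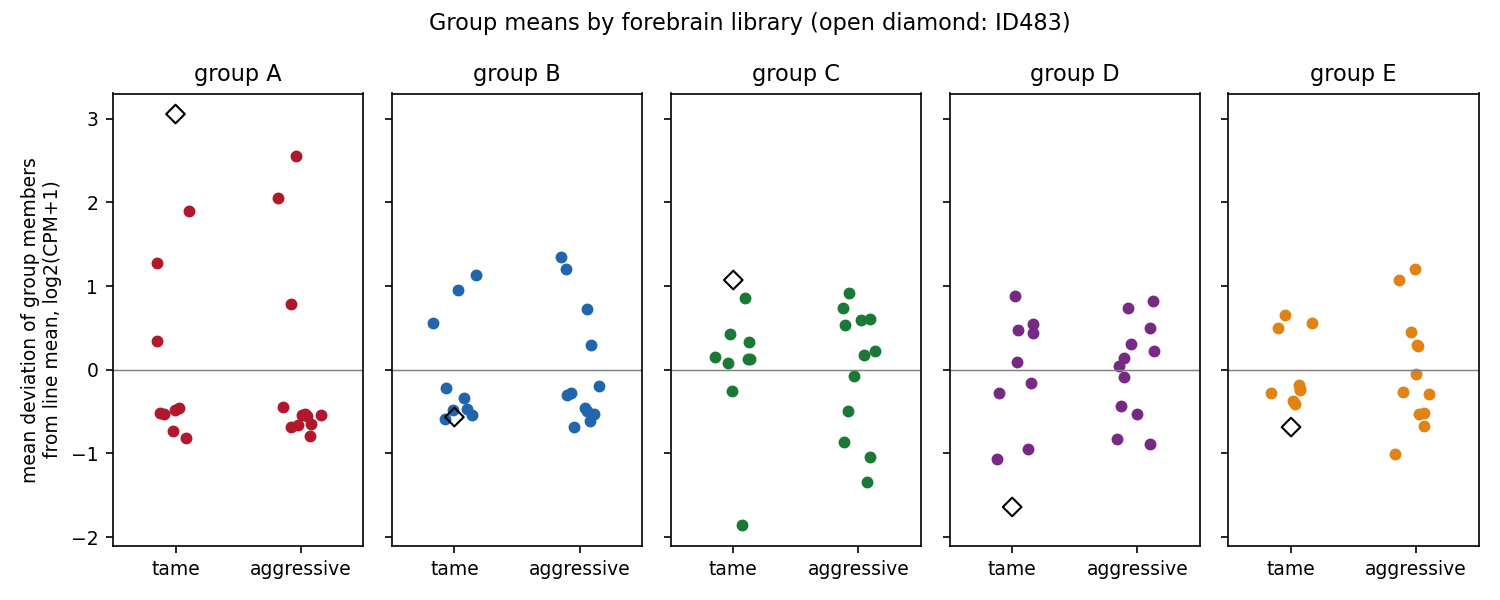
Mean deviation of each group's genes from the line mean (vertical axis, log2(CPM + 1)) in every forebrain library, by line, with 1 point per library and ID483 as an open diamond. Group A has a few libraries far above 0 in both lines, up to 2.56 without ID483, while group C has a tail of low libraries down to -1.86.

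Across the 21 libraries the group means of C and D had a Pearson correlation of -0.76 (Spearman's rho -0.76), which was -0.75 without the 2 libraries farthest from the median of group C. The means of B and C had -0.73 (rho -0.73; -0.67 without 2 libraries). For A and B the correlation was 0.63 (rho 0.44), and 0.43 without ID530 and ID540, so it rests in part on those libraries. For A and C it was -0.55 (rho -0.20) and fell to -0.27 without the same libraries. All 10 pairs of group means were compared, and no p is given because the groups were formed on these values.

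The variance was not the work of single libraries in most genes. A single library gave over 50% of a gene's within-line sum of squares in 4 of the 200 genes (0.494% of the 10130 genes). The library with the largest deviation was ID530 for 88 genes, ID541 for 31, ID486 for 15, ID533 for 12 and ID529 for 11.

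Library ID483 did not enter the variance and offers a comparison with the other tame libraries. It lay above all 9 of them in 104 of the 200 genes (20.2% of the 10130 genes did so) and below all 9 in 36 (28.3%). By group, it lay above in 71 of 72 genes of A and 19 of 35 of C, and below in 16 of 38 of B and 16 of 25 of D. Without the 16 genes that reach 10 CPM only through ID483, it lay above in 63 of 64 genes of A and 18 of 31 of C. The median deviation in ID483 was 3.07 for A, 0.88 for C, -0.51 for B, -1.59 for D and -0.56 for E. ID483 did count in the mean CPM of all 72 genes of A, and 8 of them reach the limit only through it.

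Which line was the more variable in these genes depended on ID483. Without it the SD was larger in aggressive forebrain for 68 of the 72 genes of group A, and with it for 11. The median SD of these genes was 1.09 in aggressive forebrain, and in tame forebrain 0.91 without ID483 and 1.30 with it. The genes of a group move together, so such counts are not of independent genes. Over the 200 genes the SD was larger in tame forebrain for 71 without ID483 and 139 with it (51.4% of the 10130 genes without it). The share over all genes with ID483 was not computed, so the rise with it is not read as particular to these genes. In group D the tame SD was larger in 20 of 25 genes either way.

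The cortex libraries were not used for the choice and show whether the same genes vary there. A cortex row was present for all but 17 of the 200 genes, and 12 of these 17 belonged to group C. Over 19 cortex libraries, leaving out the 5 tame ones that stood apart, the median within-line SD of the members was 0.32, against 0.149 over all genes. Of the 138 members with at least 10 CPM in the cortex, 40 were among the 200 most variable of 9554 cortex genes (2.09% of the genes). They comprised 20 of 60 genes of A, 1 of 36 of B, 2 of 11 of C, 3 of 14 of D, 5 of 7 of E and 9 of 10 ungrouped genes. Only 10 of the 21 ungrouped genes with a cortex row reached 10 CPM there and could be ranked. Among the ranked genes, high spread in the forebrain thus went with high spread in the cortex for most of E and of the ungrouped genes. It did so for a smaller part of A (20 of 60), C (2 of 11) and D (3 of 14), and for 1 of 36 genes of B.

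**Figure D3:**
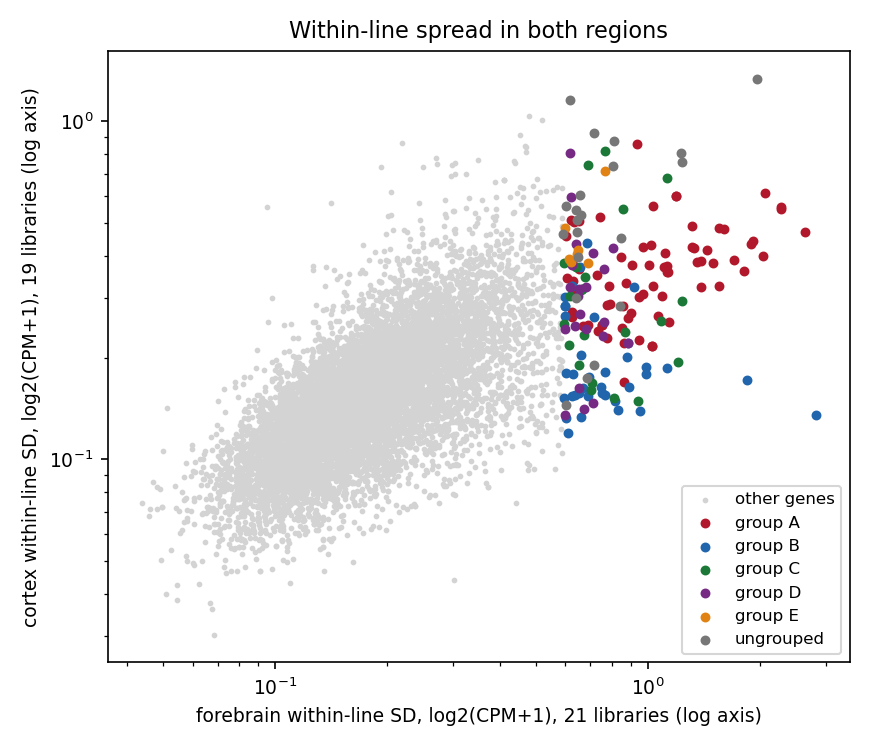
Within-line SD of log2(CPM + 1) in the forebrain (horizontal, 21 libraries, log axis) against the cortex (vertical, 19 libraries, log axis), with 1 point per gene and the members coloured by group. The members lie above 0.593 on the horizontal axis by construction, and their median cortex SD of 0.32 is above the 0.149 of all genes.

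The joint movement of the groups carried over to the cortex in part. The median pairwise correlation over the 19 cortex libraries was 0.73 in group E, 0.48 in A and 0.25 in B, and 0.03 in C and -0.01 in D, against 0.02 over all genes. In the 12 aggressive cortex libraries alone it was 0.82 in E, 0.30 in A and 0.30 in B. In the 7 tame ones it was 0.42 in E, 0.73 in A and 0.18 in B. Of these, ID185 stood far out for group A, with a mean deviation of 0.77, against -0.33 to 0.04 in the others. The part of ID185 in the correlation of 0.73 was not tested. The opposition of B and C was weaker in the cortex, with r = -0.44 (rho -0.32), and -0.36 without the 2 libraries farthest from the median of group B. The opposition of C and D was not seen there: their means had r = 0.77 (rho 0.36), which was 0.04 without ID185 and ID238. The group means also moved less there: A ranged from -0.33 to 0.77 in log2, B from -0.16 to 0.18 and D from -0.13 to 0.37, while E ranged from -1.05 to 0.69.

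The ungrouped genes belonged to no group of at least 5 genes, which leaves room for smaller sets that move together. Among them, 5.93% of pairs had a forebrain r over 0.5, against 7.86% over all genes. In the forebrain and cortex libraries that share the last 2 digits of their identifiers (15 such pairs without the libraries that stood apart), the within-line deviations correlated with r over 0.5 in 15 members, against 12.7% of the genes. The ungrouped genes made up 8 of these 15, of 21 measured, and group A 0 of 72. The median correlation was 0.29 over the ungrouped genes, -0.04 over group A and 0.19 over all genes. The labels do not say that such libraries came from the same fox.

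The groups had different region preferences, with B higher in the cortex and C and D higher in the forebrain. Forebrain was compared with cortex by edgeR's quasi-likelihood test on 1 joint fit of the 46 libraries over 12695 genes, with Benjamini-Hochberg adjustment and a threshold of 0.05. Of the members in both tables, 113 passed (63.9% of all genes did), 65 higher in forebrain (33.8%) and 48 lower (30.2%). A gene with a mean under 10 CPM in the forebrain could not enter, while a gene low in most forebrain libraries could enter through a few high ones. The forebrain spread on which the genes were chosen is part of the error of this test. Region and count table coincide, so a difference in how the tables were made cannot be told apart from one between regions.

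Group B was a set of genes with far higher levels in the cortex. Lower levels in forebrain were called for 35 of its 38 genes, of which 33 had a log2 fold change under -1 (5.66% of all genes), and higher levels for 0. The median log2 fold change was -2.16 and the range -4.20 to 0.16. In 18 of the 38 genes every forebrain library lay below every cortex library (3.11% of the genes).

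ENSCAFG00000007867 measured 42.5 to 190 CPM in tame forebrain (median 56.05) and 42.3 to 242 in aggressive forebrain (median 70.9). In the cortex it measured 532.7 to 876 CPM in tame (median 699) and 468 to 752 in aggressive foxes (median 680). Forebrain and cortex did not overlap, and the log2 fold change was -3.16 (SE 0.19, adjusted p = 2.46e-19, edgeR). ENSCAFG00000010401 showed the same pattern, with forebrain medians of 24.7 and 30.0 CPM against cortex medians of 249 and 220 in tame and aggressive foxes, and a log2 fold change of -3.01 (SE 0.18, adjusted p = 7.13e-19, edgeR). ENSCAFG00000004828 reached 155 to 390 CPM in tame and 136 to 208 in aggressive cortex, above its highest forebrain library (64.8), with a log2 fold change of -4.20 (SE 0.48, adjusted p = 2.0e-10, edgeR). ENSCAFG00000003665 was at 1421 to 3157 CPM in tame and 1212 to 1798 in aggressive cortex, so even its 661 CPM in ID486 lay below every cortex library.

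The level of group B in a forebrain library went with that of other cortex-preferred genes. Over 200 genes that were not members and had the strongest cortex preference, the mean deviation was highest in ID533 (0.49), ID486 (0.47), ID530 (0.30) and ID541 (0.25), and lowest in ID529 (-0.34) and ID483 (-0.33). Over 200 such genes with forebrain preference it was lowest in ID530 (-0.38), ID533 (-0.37) and ID486 (-0.30). The 4 libraries highest in group B were thus the 4 highest for other cortex-preferred genes, and the part of that wider movement in the level of group B was not tested.

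Groups C and D preferred the forebrain. Higher levels in forebrain were called for 19 of the 23 tested genes of C and lower for 3, with a median log2 fold change of 1.72 and a range of -1.95 to 4.35. In group D, 17 of 22 were called higher and 0 lower, with a median of 1.61 and a range of -0.36 to 3.87. In each of these groups 16 genes were called with a log2 fold change over 1 (5.16% of all genes). Every forebrain library lay above every cortex library in 5 genes of C and 5 of D (4.15% of the genes).

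ENSCAFG00000011356 of group C measured 127 to 700 CPM in tame forebrain (median 472) and 154 to 630 in aggressive forebrain (median 442). In the cortex it measured 8.75 to 34.9 CPM in tame (median 22.04) and 15.3 to 50.02 in aggressive foxes (median 20.9). The regions did not overlap, and the log2 fold change was 4.10 (SE 0.17, adjusted p = 5.58e-25, edgeR). ENSCAFG00000002207 of group D had forebrain medians of 108 CPM in tame (41.3 to 224) and 132.5 in aggressive foxes (70.6 to 259), against cortex medians of 11.2 and 11.1. Its log2 fold change was 3.31 (SE 0.17, adjusted p = 1.01e-21, edgeR).

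In ENSCAFG00000001515, the gene closest to the mean of group D, the log2 fold change was 3.79 (SE 0.26, adjusted p = 6.65e-17, edgeR). Its lowest forebrain library, at 23.2 CPM, lay within the cortex range of 2.39 to 42.9 CPM. ENSCAFG00000016726 of the same group had medians of 87.9 and 133 CPM in tame and aggressive forebrain and 36.4 and 39.5 CPM in the cortex (log2 fold change 1.46, adjusted p = 1.52e-08, edgeR).

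**Figure D4:**
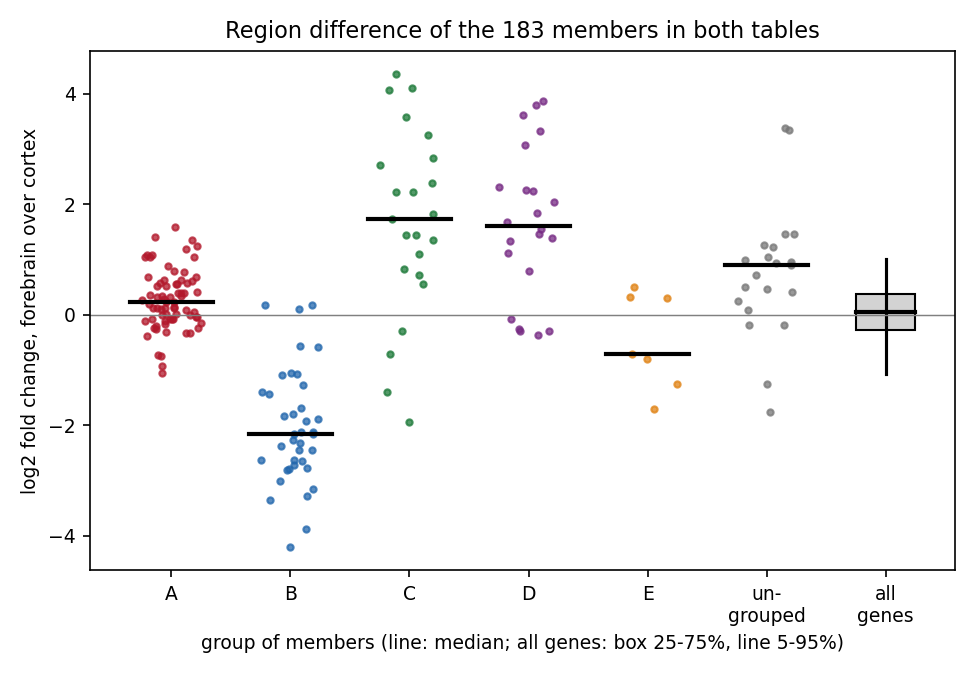
Log2 fold change of forebrain over cortex (vertical axis) for the members in both tables, by group, with 1 point per gene, a line at the median, and for all genes a box of the middle 50%. Group B lies almost wholly below 0 (median -2.16), groups C and D mostly above it (medians 1.72 and 1.61), and group A around 0 (median 0.22).

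The direction of group A between regions depended on the summary. By edgeR, 17 of its 72 genes were higher in forebrain and 4 lower, with a median log2 fold change of 0.22 and a range of -1.05 to 1.59. The mean level was higher in forebrain for 60 of the 72 genes (67.4% of the genes), yet the median level was lower in forebrain for 60 of the 72 (34.7% of the genes). The typical gene had a median of 11.3 CPM in forebrain and 22.9 in cortex. ENSCAFG00000002069 shows how both hold: its cortex medians of 79.4 and 90.9 CPM in tame and aggressive foxes lay above its forebrain medians of 34.7 and 24.1, while its highest forebrain libraries exceeded every cortex library (highest 156 CPM). Its log2 fold change was 0.23 (SE 0.39, adjusted p = 0.62, edgeR).

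With sample quality weights, limma-voom called 4 genes of group A higher (40.2% of all genes) and 37 lower (37.1%), with a median of -0.46. With libraries that share the last 2 digits of their identifier as a block, edgeR called 3 higher (34.7% of all genes) and 23 lower (27.5%), with a median of -0.35. In the same 20 pairs without the block it called 14 (32.5%) and 3 (29.7%). Without ID483 and the 5 tame cortex libraries it called 10 higher (42.2%) and 4 lower (31.9%), with a median of 0.03.

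Group E had 1 gene higher in forebrain and 4 lower of 7 (median -0.72). The ungrouped genes had 11 higher and 2 lower of 21 (median 0.90). Over all genes the median was 0.04.

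The difference between lines was centred out of the values that chose the genes. The spread within lines, on which they were chosen, is however the error of this test, so that few calls among them were built in by the choice and nothing is read from their count. By edgeR's quasi-likelihood test over 12915 forebrain genes, 12 genes differed between the lines (0.0929%), and 0 of the 200 members were among them. The smallest adjusted p of a member was 0.213. At an unadjusted p under 0.05 there were 12 members (11.5% of all genes): 1 in A, 2 in B, 1 in C, 1 in E and 7 ungrouped. DESeq2 and limma-voom with quality weights also called 0 members.

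The group medians of the log2 fold change, tame over aggressive, were 0.39 in A, 0.02 in B, 0.19 in C, -0.39 in D and 0.51 in E, against 0.01 over all genes. In group A 68 of 72 genes had a positive value, but the median turned to -0.19 without ID483 and rose to 0.87 without ID530. The median of group C fell to 0.02 without ID483. Group B had medians from -0.20 (without ID486) to 0.25 (without ID530) when 1 library was left out. Group D had 0 of 25 positive (median -0.29 without ID483), and group E 7 of 7 (0.55 without ID483). The genes of a group move together, so these signs are not independent of each other. A value over 1 was reached by 12 members with ID483 and by 0 without it. The lowest value, in ENSCAFG00000003841, did not rest on ID483: it was -2.12 with it and -2.10 without it.

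**Figure D5:**
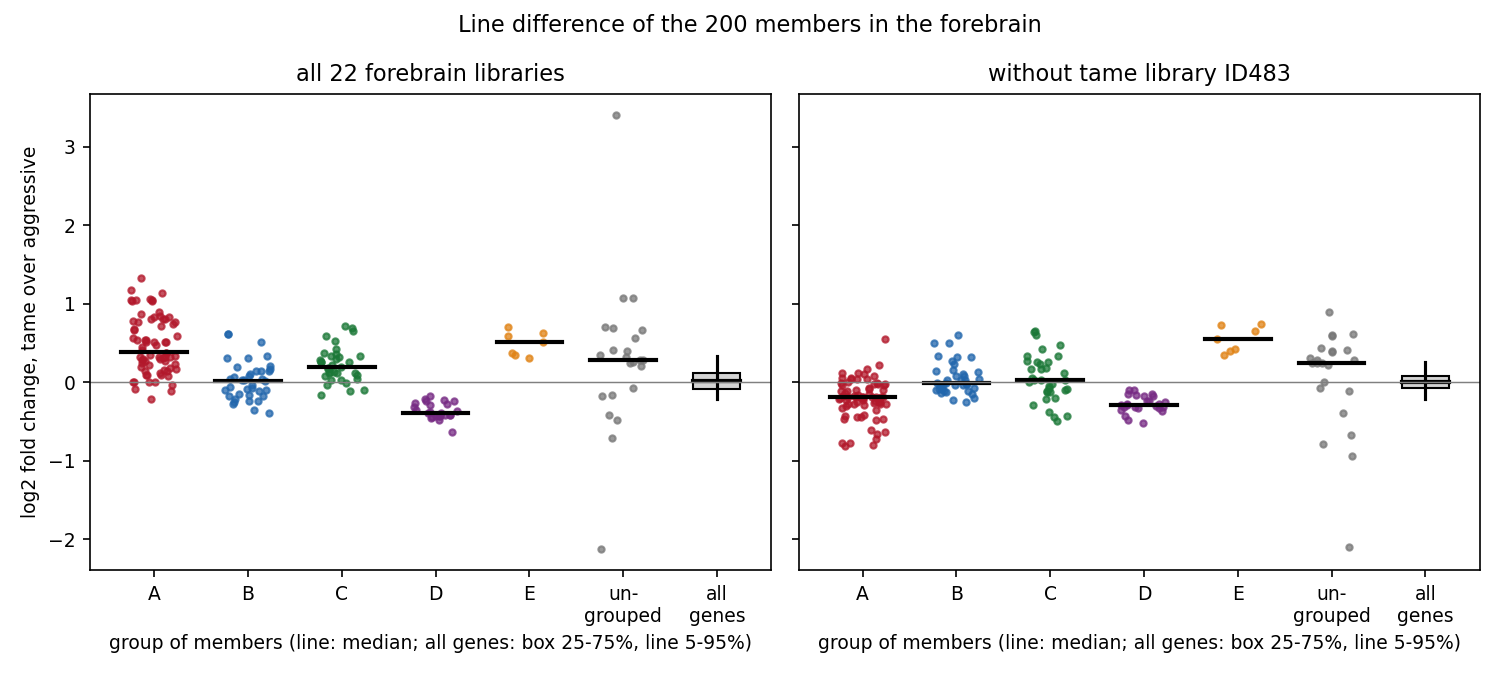
Log2 fold change of tame over aggressive forebrain (vertical axis) for the 200 members by group, with all 22 libraries (left) and without ID483 (right), with 1 point per gene, a line at the median and a box of the middle 50% of all genes. The median of group A moves from 0.39 to -0.19 when ID483 is left out.

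The member with the largest positive value, ENSCAFG00000004149, was ungrouped and was singled out after its values were seen. It measured 176 CPM in ID483, 17.7 in ID485 and 1.03 to 2.34 in the other tame libraries, and 0.657 to 5.45 in aggressive forebrain. The log2 fold change was 3.40 (SE 0.92, adjusted p = 0.213, edgeR) and 0.89 without ID483 (adjusted p = 0.663, edgeR). The largest negative value belonged to ENSCAFG00000003841, also ungrouped, at 91.0 CPM in ID529, 44.3 in ID537, 42.5 in ID540 and 13.8 in ID530, and 2.74 to 5.65 in the other aggressive libraries. Tame forebrain stayed at 3.31 to 6.15 CPM for this gene (log2 fold change -2.12, SE 0.62, adjusted p = 0.246, edgeR). Without ID483 the log2 fold change was -2.10 (adjusted p = 0.368, edgeR). A few libraries thus made the largest differences between lines.

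In the cortex, edgeR's quasi-likelihood test called 55 of 12705 genes (0.433%) between the lines, of which 1 was a member. At an unadjusted p under 0.05 there were 60 members (34.6% of all genes), 24 of them in group B and 16 in A. Without the 5 tame libraries that stood apart, 2 genes of B and 6 of A were left at that threshold (7.09% of all genes), and limma-voom with quality weights had 7 and 17 (10.9%). The called member, ENSCAFG00000017040 of group A, measured 34.3 to 79.4 CPM in tame cortex (mean 53.2 ± 13.6 SD, n = 12) and 16.6 to 53.6 in aggressive cortex (29.2 ± 11.1 SD, n = 12). The groups overlapped, and the log2 fold change was 0.99 (SE 0.20, adjusted p = 0.0240, edgeR). Without the 5 tame libraries it was 0.71 (adjusted p = 0.222, edgeR), and the gene was no longer called. In the forebrain it measured 9.68 to 157 CPM in tame (median 16.5) and 5.61 to 70.9 in aggressive foxes (median 11.2), with a log2 fold change of 0.77 (SE 0.54, adjusted p = 0.556, edgeR) that fell to 0.058 without ID483.

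The count of cortex members depended on the tool: DESeq2 called 17 (14 higher in tame, 3 lower; 5.65% of all genes) and limma-voom with quality weights 10 (5 and 5; 1.28%). Without the 5 tame libraries edgeR called 2 (0.235%). The median log2 fold change was 0.20 in A and 0.20 in B, and 0.01 and -0.02 without those libraries. Whether the line difference depended on region was tested by the interaction term: edgeR's quasi-likelihood test called 0 of 12695 genes (0.0%), members included, with 10 members at an unadjusted p under 0.05 (14.6% of all genes). The smallest adjusted p of a member was 0.327, and DESeq2 called 2 genes of which 0 were members.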

How the data were processed

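Poly(A) RNA of fox brain was sequenced on a HiSeq2000 from unstranded TruSeq v2 libraries, per the labels' protocols. The authors deposited 1 table of estimated counts per gene and region, which can be fractional, with dog Ensembl identifiers per the file headers. CASAVA 1.8.2, FastQC, Trimmomatic, BWA, bedtools, edgeR and canFam3 are named, without their roles, per the submitters' processing notes. The strand setting of the counting is not given in the sources used here, so antisense partners cannot be told apart.

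CPM were computed on deposited totals (pseudocount 1). Counts were rounded and tested with edgeR 4.0.16 (R 4.3.3; filterByExpr minimum count 10, TMM scaling, robust quasi-likelihood fit, Benjamini-Hochberg over all genes tested) in each region and in 1 joint fit of 46 libraries. The tests were tried on simulated data. Alternatives used DESeq2 1.42.0, limma 3.58.1, other scaling, filters, clustering and left-out libraries.

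The genes, groups and lists were chosen with earlier results of these data known. Named genes are the 2 closest to the mean of each group, the 2 region differences of smallest p each way and the genes called between lines, with exceptions stated. A fox RefSeq gene table (VulVul3) matched 0 of the 13202 identifiers, so 18 lists of symbols could not be used, no positions or sequences are given, and at most 2 identifiers stand for a direction. Identifiers sharing the last 2 digits form 20 pairs across regions; the labels do not state a pairing.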

Additional observations from a re-analysis of the deposited data

Results flagged for a closer look

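Across the 10 tame forebrain libraries, the gap of the highest and of the lowest library to its neighbour was set against the range of the libraries for 20 quantities. Chance flags about 1 in 20 independent checks. Many of these share group A and ID483 and use genes chosen for large spread, so nothing is read from the 5 that stood out. ENSCAFG00000002069 of group A was at 637 CPM in ID483, and the next tame library at 299 CPM. ENSCAFG00000019189 of the same group was at 327 CPM in ID483 and at 132 CPM in the next. For ENSCAFG00000017040, also of group A, the values were 157 and 50.2 CPM. The share of counts taken by the 200 genes was 2.995% in ID483 and 1.77% in the next tame library. The mean deviation of group C was lowest in ID541, at -1.86 against -0.25 in the next library. 4 of the 5 thus concern ID483, which counted in the mean CPM of the genes but not in their variance.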

How the results depend on the processing

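The choice of genes depended on the measure of spread and on the level limit. Of the 200 genes, 116 were also chosen by the median absolute deviation, 130 with a minimum of 5 CPM and 124 with a minimum of 20 CPM. Including ID483 kept 160, other pseudocounts kept 171 and 193, TMM scaling 197, and leaving out any 1 of the 21 libraries kept more than 160. A tree cut at 0.6 gave a largest group of 111 genes, complete linkage gave 8 groups, and leaving out 1 library gave 4 to 6 groups. Of group A, 59 to 72 genes stayed in 1 group under every alternative run, though that group could take in other genes. The largest group held 107 genes without ID484, 101 without ID491 and 96 without ID529. In the cortex, 17 members were called between lines by DESeq2, 10 by limma-voom and 2 without the 5 tame libraries, where ENSCAFG00000017040 had 0.71. All genes called there numbered 704, 163 and 30 under the same settings, against 55, and 53 by DESeq2 in the forebrain, against 12. Median log2 fold changes changed sign in several alternatives. They were, for group A, -0.19 between forebrain lines without ID483, -0.12 between cortex lines by limma-voom, and -0.46 and -0.35 between regions by limma-voom and with the block; and for group B, -0.015 between cortex lines without the 5 libraries and 0.073 for the interaction by limma-voom. The interaction of group A, 0.33, was -0.22 without ID483 and the 5 libraries and -0.03 with the block. The forebrain line median of group B, 0.02, ran from -0.20 to 0.25 when 1 library was left out, and the cortex line medians of D and E stayed between -0.06 and 0.06 with either sign. Members called between regions numbered 99 to 137 over the alternatives. The cause of these changes was not tested. Pairing by the last 2 digits was not established: within-line deviations correlated from -0.318 to 0.357 over 20 pairs, 14 of them over 0.1, and 4 libraries correlated best with their own number over all genes (6 over the members). With the replicate block, 122 members were called between regions (52 higher, 70 lower), against 111 (62 and 49) in the same pairs without it. Forebrain members called between lines stayed at 0 in every alternative run, which the choice of genes on within-line spread largely built in. At the 6.25 M counts of the shallowest forebrain library, levels under 1 CPM rest on few reads.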

Other observations

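ENSCAFG00000012226, one of the ungrouped genes with the highest correlation between regions and chosen after its values were seen, took separate low and high levels in tame foxes. In tame cortex it measured 24.2 CPM in ID189, 26.0 in ID192, 28.8 in ID186, 29.4 in ID190 and 38.1 in ID188, and 128 to 204 CPM in the other 7 libraries. In tame forebrain it measured 8.46 CPM in ID492, 13.3 in ID489 and 15.3 in ID486, and 40.02 to 101 CPM in the other 7. The numbers 86, 89 and 92 were thus low in both regions, and the tame forebrain libraries numbered 88 and 90 were not analysed here. Aggressive foxes showed no such gap, at 102 to 421 CPM in the cortex and 43.6 to 105 CPM in the forebrain. The log2 fold change, tame over aggressive, was -1.33 in the cortex (SE 0.36, adjusted p = 0.0848, edgeR) and -0.71 in the forebrain (adjusted p = 0.393, edgeR), neither past the threshold. Without ID483 the forebrain value was -0.94 (adjusted p = 0.354, edgeR). Of the low cortex libraries, ID186 and ID190 are among those that stood apart, while ID188, ID189 and ID192 are not. The cortex value without the libraries that stood apart is not given here.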
